A study of Mus musculus with 43 samples.

Results

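Fetal ovaries that kept 1 intact copy of Foxl2 were placed gene by gene between ovaries with both copies and ovaries with none. They are 3 of the 43 arrays of the series, each made from the gonads of a single mouse of embryonic day 16 (E16), and were taken by their labels, which give the genotype as Foxl2+/-. The 3 Foxl2-null arrays of the same day are labelled Foxl2-/-, and the labels of the 3 control arrays state no genotype; the methods of the study describe these controls as wild-type littermates. The other 34 arrays hold ovaries of E13, E15 and the day of birth (P0), several of them with further mutations of Wnt4 or Kit, and testes of E13 and P0. The E16 mice came from a mixed C57BL/6J, NIH-Swiss/BC and CD1 background, the whole gonad was taken without the adjoining ducts, and the litters of the heterozygous mice are not stated.

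FOXL2 belongs to the forkhead transcription factors and acts in the supporting cells of the ovary, which become granulosa cells, where it promotes ovarian and restrains testicular gene expression. In humans, loss of 1 copy causes an eyelid malformation that can come with early ovarian failure, so the effect of dosage is of medical interest, whereas mice with 1 copy are fertile. Transcripts were measured on Affymetrix MOE430 v.2 arrays, and a signal is given here as a multiple of the mean of the array, which is the same for all arrays. A log2 change is a difference of log2 signals after adding 1% of that mean, which understates the change of weak genes. Changes were tested with limma in a single fit of all 43 arrays, and a gene was called at a Benjamini-Hochberg adjusted p under 0.05 over 18184 genes. In whole gonads, fewer cells of a type and less RNA per cell cannot be told apart.

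Foxl2 itself stood closer to the wild-type than to the null level in heterozygous ovaries. On the probe set with the stronger signal, wild-type arrays measured 16.5, 15.7 and 14.5, heterozygous arrays 13.1, 13 and 13.6, and null arrays 2.77, 2.03 and 2.47. The 3 genotypes did not overlap, and the heterozygous mean was 85.0% of the wild-type mean. The log2 change from wild-type was -0.23 ± 0.51 (SE), with an interval from -1.27 to 0.81 that includes 0, whereas the change from heterozygous to null was -2.46 ± 0.51 (adjusted p = 0.0217), a call that was lost without any single heterozygous or null array. This SE and the interval rest on the spread within all 15 groups, not on that of the E16 arrays alone. Among these groups are the testes of P0, where Foxl2 measured 0.214, 0.145 and 0.000528. The other, weaker probe set read 0.310, 0.274 and 0.355 in wild-type arrays and 0.166, 0.228 and 0.22 in heterozygous arrays, 65.3% of the wild-type mean, and at most 0.000324 in null arrays. The order of the genotypes was thus the same on both probe sets, but the share of the wild-type signal that remained differed between them. Where these probes lie relative to the deleted part of the gene is not given in the sources used here.

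**Figure D1:**
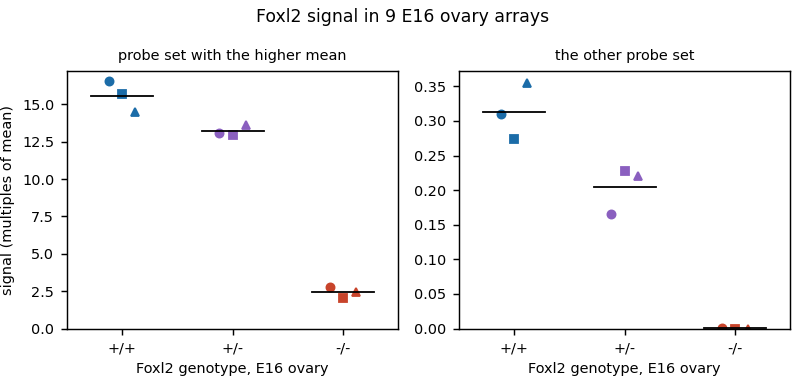
Signal of Foxl2 in multiples of the array mean (y axis) for wild-type (+/+), heterozygous (+/-) and null (-/-) E16 ovaries, with 1 panel per probe set; points are arrays, with a different symbol for each array number, and lines are the means of 3 arrays. The heterozygous arrays lie at 13 to 13.6 on the stronger probe set, below the wild-type and well above the null arrays.

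Losing 1 copy of Foxl2 changed few transcripts far enough to be called. Between heterozygous and wild-type ovaries 1 gene rose (0.0055% of all genes) and 0 fell by limma, although 1021 genes had an unadjusted p under 0.05, 2.83% of all genes upwards and 2.79% downwards. Between null and wild-type ovaries 88 genes rose (0.484%) and 51 fell (0.28%). Between null and heterozygous ovaries, which compares the loss of the remaining copy, 8 genes rose (0.044%) and 24 fell (0.132%), 29 of these 32 being also called between null and wild-type. No gene (0) was called as departing from the midpoint of wild-type and null, with 643 at an unadjusted p under 0.05 by limma. These counts depend on single arrays. Between null and wild-type, 62 genes were called without wild-type array 3, 85 without wild-type array 2, 82 without null array 1 and 67 without null array 3. Between null and heterozygous, 12 or 15 were called without heterozygous array 2 or 3, and 17 or 18 without null array 1 or 3. Between heterozygous and wild-type, 12 genes were called without heterozygous array 3, 7 without wild-type array 1, and 0 without wild-type array 3 or heterozygous array 2. With each array centred on its median, the median change of all genes between heterozygous and wild-type moved from -0.03 to 0.10. Centring shifts all genes alike, so small negative list medians can change sign with it. Small positive list medians grow with it, and their size is not settled.

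The heterozygous level of the 139 genes called between null and wild-type was expressed as a position, the log2 change from wild-type to heterozygous divided by that from wild-type to null, so that 0 is the wild-type and 1 the null level. These genes were chosen on the same wild-type and null arrays, which pulls the position of noisy genes towards the midpoint, and no test was made on it. The median position was 0.21 for the 51 genes that fell in null ovaries and 0.50 for the 88 that rose. For the genes that fell, the median was 0.27, 0.23 and 0.14 in heterozygous arrays 1, 2 and 3, and for those that rose it was 0.58, 0.44 and 0.32. The medians were closer on other probe sets of these genes that changed the same way at an unadjusted limma p under 0.05. There they were 0.301 for 31 probe sets of falling genes and 0.365 for 40 of rising genes. The 25 rising genes that were also called at other stages had a median of 0.32, and the 63 that were not had 0.53. By 95% intervals, 78 genes were apart from the null but not from the wild-type level, 23 were apart from both, 37 were apart from the wild-type but not from the null level, and 1 (Cbr3) was apart from neither. Of the 51 falling genes, 41 were apart from null only, 4 from both and 6 from wild-type only, and of the 88 rising genes, 37, 19 and 31. An interval that includes 0 does not show that 2 levels are equal.

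**Figure D2:**
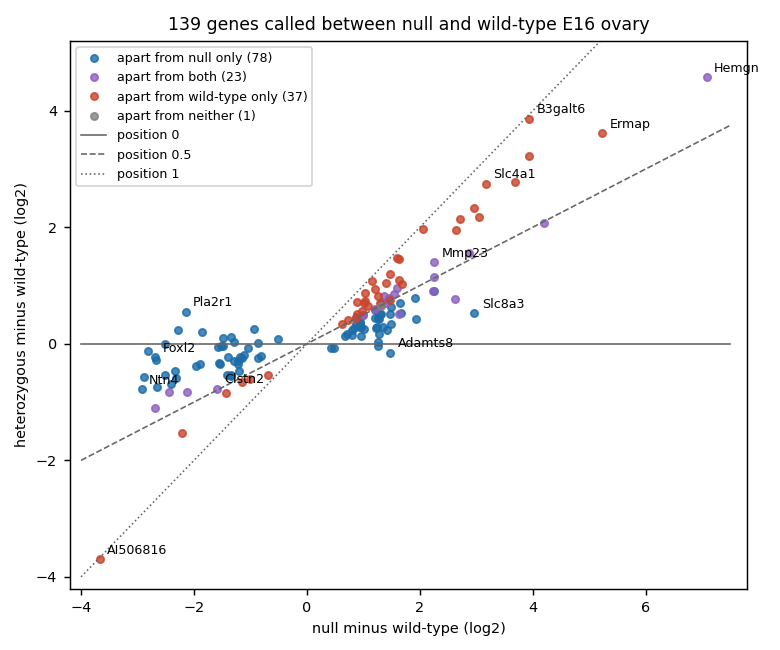
Log2 change of heterozygous ovaries (y axis) against that of null ovaries (x axis), both relative to the same 3 wild-type arrays, for the 139 genes called between null and wild-type; colours give the 95% interval class and lines the positions 0, 0.5 and 1. On the probe sets drawn, genes that fell in null ovaries have a median position of 0.21, while those that rose spread from 0 to 1.

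A first set of genes stayed near the wild-type level with 1 copy and changed with the loss of both. Adamts8, a secreted metalloprotease with thrombospondin repeats, measured 0.212, 0.200 and 0.234 in wild-type, 0.177, 0.198 and 0.202 in heterozygous and 0.739, 0.657 and 0.483 in null arrays. All null arrays were above all others, and wild-type and heterozygous arrays overlapped. The log2 change was -0.16 ± 0.22 (SE) from wild-type to heterozygous and 1.64 ± 0.22 from heterozygous to null (adjusted p = 0.00011). Inhbb, which encodes the beta-B subunit of activin and inhibin and is more highly expressed in the fetal testis than in the fetal ovary, measured 0.964, 0.851 and 0.682 in wild-type and 0.895, 0.782 and 0.726 in heterozygous arrays, against 2.03, 1.93 and 2.01 in null arrays. Its heterozygous mean was 96.2% of the wild-type mean, and it rose by a log2 of 1.31 ± 0.21 from heterozygous to null (adjusted p = 0.000991).

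Among the genes that fell in null ovaries, Thbs2, an adhesive glycoprotein of the matrix, read 4.23, 4.64 and 3.22 in wild-type, 3.83, 3.97 and 3.71 in heterozygous and 1.56, 1.10 and 1.38 in null arrays. The heterozygous arrays lay inside the wild-type range, and all 3 probe sets of Thbs2 gave log2 changes between -0.09 and 0.05 from wild-type to heterozygous. Akr1c14, an aldo-keto reductase that acts on steroids, read 2.21, 3.6 and 3.58 in wild-type, 2.67, 3.41 and 3.95 in heterozygous and 1.26, 1.21 and 1.11 in null arrays. It changed by a log2 of 0.11 ± 0.23 with the loss of 1 copy and fell by 1.46 ± 0.23 with the loss of the remaining copy (adjusted p = 0.00062). Il13ra2, a decoy receptor for interleukin 13, read 0.707, 0.566 and 0.619 in wild-type, 0.720, 0.870 and 0.645 in heterozygous and 0.166, 0.0920 and 0.114 in null arrays. The receptor gene Pla2r1, which binds secreted phospholipases, read 0.413, 0.622 and 0.571 in wild-type and 0.739, 0.920 and 0.689 in heterozygous arrays, all 3 above the wild-type arrays, and 0.104, 0.104 and 0.127 in null arrays. Its change from wild-type was 0.55 ± 0.42 and was not called (adjusted p = 0.939), whereas the fall from heterozygous to null was -2.70 ± 0.42 (adjusted p = 0.00062).

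Further genes of this set that were called both between null and wild-type and between null and heterozygous were Elovl2, an elongase of long-chain fatty acids (position 0.20), Bcat1, which starts the breakdown of branched-chain amino acids (0.11), the sodium/calcium exchanger gene Slc8a3 (0.18), the syndecan Sdc4 (0.08), the fibrillin Fbn2 (-0.01), the metalloprotease Adamts16 (-0.28), the neuronal polarity gene Shtn1 (-0.06), the receptor tyrosine kinase Ret (0.00) and Smad3, which transmits TGF-beta and activin signals (-0.17). The call between null and heterozygous was lost without heterozygous array 2 for Sdc4, Fbn2, Ret and Smad3, without heterozygous array 3 for Fbn2, Ret and Smad3, without null array 2 or 3 for these 3 genes, and without heterozygous array 1 for Ret and Smad3 and null array 1 for Ret. For Bcat1 and Smad3 it was also lost on another probe set, and for Smad3 with median centring. A further probe set of Smad3 changed by -0.05 between null and heterozygous. Another probe set of Ret had position 0.30, with the heterozygous mean at 59.9% of the wild-type mean. A weak probe set of Adamts16 changed by -0.57 from wild-type to heterozygous and by 0.52 from heterozygous to null. Between null and wild-type, the calls of Adamts16 and Ret were lost without wild-type array 1, that of Adamts16 also with median centring and that of Ret without null array 3.

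**Figure D3:**
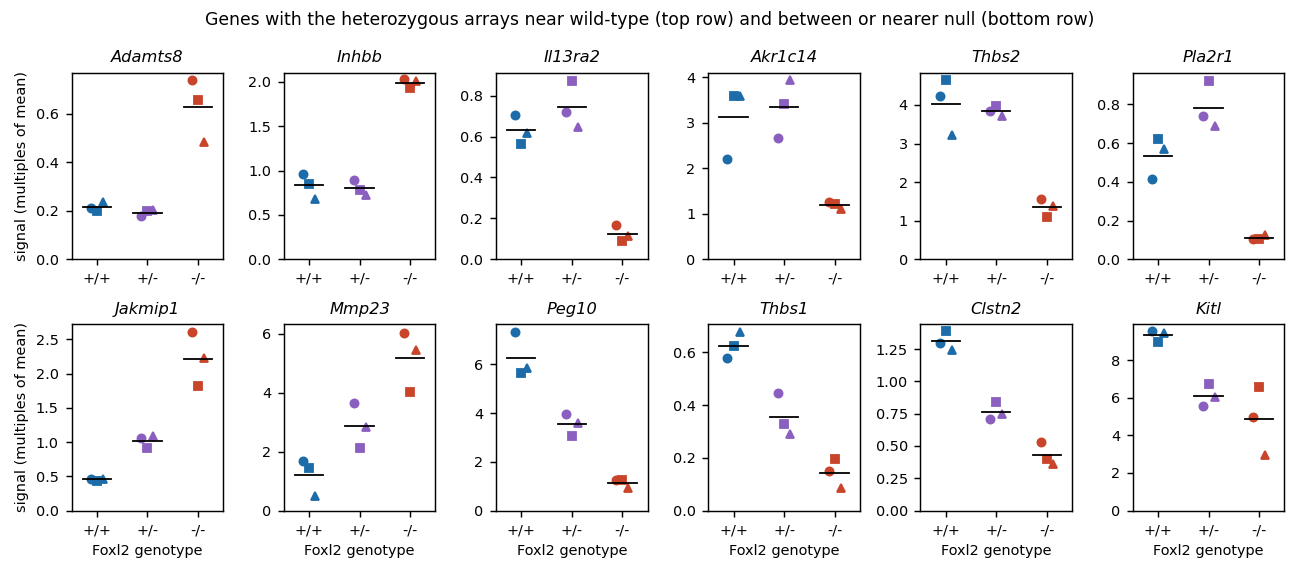
Signal in multiples of the array mean (y axes, from 0) of 12 genes in wild-type (+/+), heterozygous (+/-) and null (-/-) E16 ovaries; points are arrays, with a different symbol for each array number, and lines are means of 3 arrays. In the top row the heterozygous arrays lie at or near the wild-type arrays (Inhbb at 96.2% of the wild-type mean), and in the bottom row they lie between both groups or nearer to null (Clstn2 at 58.3%).

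A second set of genes had heterozygous means between both homozygotes, none of them called between heterozygous and wild-type. Jakmip1, Mmp23, Thbs1 and Clstn2 were called between null and wild-type only, so neither step was called by itself. Jakmip1, whose product binds microtubules and Janus kinases, measured 0.463, 0.439 and 0.464 in wild-type, 1.06, 0.920 and 1.09 in heterozygous and 2.61, 1.82 and 2.23 in null arrays, without overlap. Its position was 0.51, but 2 of its 3 weaker probe sets changed from wild-type to heterozygous by only 0.02 and -0.01. Mmp23, a matrix metalloprotease, measured 1.67, 1.45 and 0.485 in wild-type, 3.65, 2.12 and 2.83 in heterozygous and 6.04, 4.02 and 5.43 in null arrays. It changed by 1.40 ± 0.31 from wild-type to heterozygous (unadjusted p = 5.15e-05, adjusted p = 0.187, not called), and its other probe set gave 0.93 for the same difference.

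Peg10, an imprinted gene derived from a retrotransposon, was among the genes of this set that fell. Its signals were 7.32, 5.67 and 5.86 in wild-type, 3.96, 3.06 and 3.59 in heterozygous and 1.24, 1.26 and 0.945 in null arrays, and it fell by 1.62 ± 0.34 from heterozygous to null (adjusted p = 0.0217), a call that was lost without any single heterozygous or null array. Thbs1, which encodes a thrombospondin like Thbs2, read 0.578, 0.623 and 0.676 in wild-type, 0.445, 0.328 and 0.290 in heterozygous and 0.149, 0.195 and 0.0848 in null arrays. Thus Thbs1 was at 56.6% of its wild-type mean with 1 copy, where Thbs2 was at 95.1%. Clstn2, a calsyntenin of the cell membrane, read 1.3, 1.39 and 1.25, then 0.707, 0.839 and 0.745, then 0.534, 0.4 and 0.360 in the same order of genotypes, and its position was 0.48. The call of Clstn2 between null and wild-type was lost without null array 3. Ntn4, a netrin of basement membranes, read 1.23, 1.32 and 1.02 in wild-type, 0.591, 0.664 and 0.814 in heterozygous and 0.132, 0.146 and 0.166 in null arrays. The 3 genotypes did not overlap, and the heterozygous mean was 57.9% of the wild-type mean, or 65.8% on the other probe set. The change of -0.78 ± 0.42 from wild-type to heterozygous did not pass the test (adjusted p = 0.912), and its interval includes 0, so that Ntn4 counts among the genes apart from null only. It fell by 2.14 ± 0.42 from heterozygous to null (adjusted p = 0.0102), a call that was lost without heterozygous array 2 or 3 or null array 1. The receptor phosphatase gene Ptpre, at position 0.32, changed by 0.52 ± 0.21 from wild-type to heterozygous (adjusted p = 0.825) and rose by 1.12 ± 0.21 from heterozygous to null (adjusted p = 0.00434), which was lost without heterozygous array 2 or null array 3. On its other probe set the position was 0.16, and heterozygous and wild-type arrays overlapped, so it stood nearer to the first set there.

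Kitl, the ligand of the Kit receptor of germ cells, was nearer to the null level on its strongest probe set, but near the midpoint on others. It measured 9.58, 8.95 and 9.45 in wild-type, 5.55, 6.76 and 6.04 in heterozygous and 5, 6.57 and 2.97 in null arrays. Heterozygous and null arrays overlapped, and both were below all wild-type arrays. The log2 change was -0.61 ± 0.25 from wild-type to heterozygous (adjusted p = 0.829, not called) and -1.02 ± 0.25 from wild-type to null (adjusted p = 0.0354), a call that was lost without any wild-type array and without null array 1 or 3. The other 3 probe sets of Kitl changed by -0.35 to -0.59 in heterozygous ovaries, and their positions were 0.40, 0.50 and 0.54. Nr0b1, an orphan nuclear receptor of the gonad and adrenal, had a position of 0.54, with 0.311, 0.231 and 0.182 in wild-type, 0.551, 0.452 and 0.234 in heterozygous and 0.732, 0.509 and 0.565 in null arrays. Its heterozygous arrays overlapped both other groups, and its call between null and wild-type was lost without wild-type array 2 or 3 and without any null array.

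B3galt6, a galactosyltransferase that builds the linker of glycosaminoglycan chains, was the gene called between heterozygous and wild-type. It measured 0.104, 0.118 and 0.0346 in wild-type, 1.31, 1.16 and 1.27 in heterozygous and 1.03, 1.48 and 1.5 in null arrays, and rose by 3.86 ± 0.66 from wild-type to heterozygous (adjusted p = 0.0178). Heterozygous and null arrays overlapped. Its other 2 probe sets differed by 0.52 and 0.51 between heterozygous and wild-type ovaries, and 0.09 and 0.67 between null and wild-type. In the 34 arrays of the other stages and genotypes its signal ranged from 0.0365 to 1.61 with a median of 0.461. The call was lost without wild-type array 3, heterozygous array 1 or heterozygous array 2. L3mbtl3, a chromatin protein with MBT repeats, stood at 2.96, 3.10 and 2.89 in wild-type, 2.25, 1.93 and 1.98 in heterozygous and 1.96, 2.03 and 1.61 in null arrays, at position 0.79, with a change of -0.54 ± 0.15 from wild-type to heterozygous (adjusted p = 0.437). Another probe set of L3mbtl3 had a position of 0.39, and the call between null and wild-type was lost on the probe set of highest variance, with median centring, and without wild-type array 2 or 3 or null array 3.

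Genes of red blood cells made up another group at or towards the null level, and here the heterozygous arrays differed widely from one another. Hemgn, a nuclear protein of erythroid precursors, measured 0.00474, 0.0166 and 0.0181 in wild-type, 6.45, 1.70 and 0.00354 in heterozygous and 1.65, 2.75 and 5.99 in null arrays. Slc4a1, the anion exchanger of the red cell membrane, measured 0.845, 0.401 and 0.502, then 12.5, 6.70 and 0.638, then 4.04, 2.67 and 12.1. In both genes heterozygous array 1 was above the highest null array, and heterozygous array 3 was near the wild-type arrays. The positions of 0.65 for Hemgn and 0.87 for Slc4a1 are thus means over arrays that lay at either end. Ermap, a membrane protein of erythroblasts, had the same order, with 4.71, 0.751 and 0.0770 in heterozygous arrays. The call of Slc4a1 between null and wild-type was lost without wild-type array 2 or 3 and without null array 1 or 3.

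A list of erythroid genes was drawn up with earlier results of these data known. It holds Hemgn, Ermap and Slc4a1, which are among the top-ranking genes of the study. Of its 19 measured genes, 4 rose between null and wild-type (0.484% of all genes), and 0 were called between heterozygous and wild-type. In the latter comparison 11 had an unadjusted p under 0.05 upwards (2.83% of all genes). The median change was 1.33 between heterozygous and wild-type and 1.61 between null and wild-type, with -0.03 in each of these comparisons for all genes. Without heterozygous array 1 the first of these was 0.53 and without heterozygous array 3 it was 2.10. The summed signal of the list was 9.13 to 16.3 in wild-type, 56.4, 23.4 and 11 in heterozygous and 18.2, 21.6 and 56.3 in null arrays, and 4.82 to 58.7 with a median of 6.16 in the other 34 arrays. Among globin genes, Hba-a1 stayed between 0.0508 and 0.132 in all 9 arrays. This is under the median of all probe sets of 0.256, too weak to show whether it followed this pattern. The embryonic globin gene Hbb-bh1 measured 0.155, 0.0819 and 0.212 in heterozygous arrays against at most 0.0366 in wild-type arrays, so its array order differed from that of Hemgn. Its weaker probe sets had means of 0.0138 and 0.0307 in wild-type, 0.117 and 0.0648 in heterozygous and 0.0504 and 0.0403 in null arrays.

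The order of the heterozygous arrays on the rising genes was also described. Of the 31 rising genes that were apart from wild-type only, 17 had their heterozygous arrays in the order 1, 2, 3 from high to low, as the red-cell sum did, against 13.6% of all genes and 4 of the 37 rising genes that were apart from null only. These 31 genes were chosen on their heterozygous level and hold 3 genes of the erythroid list, without which 14 of 28 had this order. The median position of these 31 genes was 1.16, 0.69 and 0.47 in heterozygous arrays 1, 2 and 3. In a fit that also held the mean log2 value of the erythroid list in each array as a covariate, which was chosen after seeing the data, 26 genes were called between null and wild-type in place of 139, all of them among the 139, and 0 of these were apart from wild-type only. The calls lost with the covariate included that of Foxl2 itself, and those of Akr1c14, Clstn2 and Fbn2. A lost call therefore does not mark a gene as a red-cell gene. Between null and heterozygous, 27 of the 32 genes were still called with the covariate. The covariate and the genotype moved together at E16, so that their parts in these changes cannot be told apart.

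**Figure D4:**
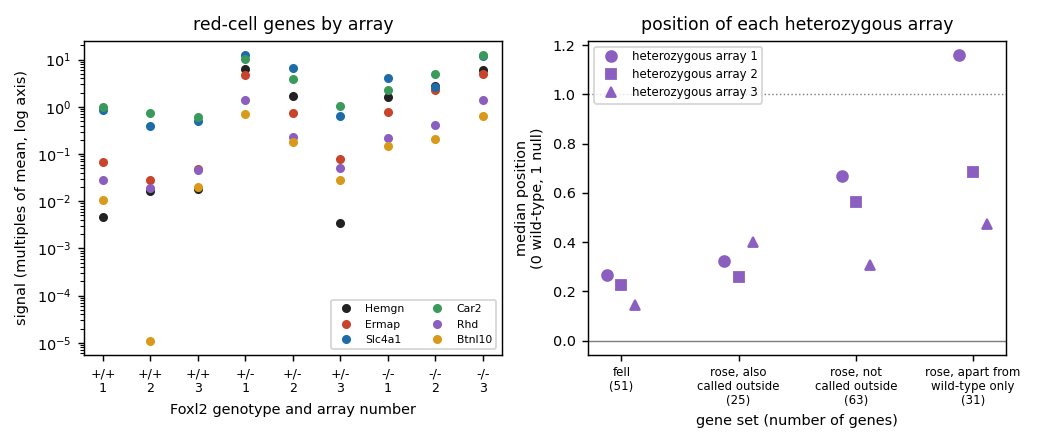
Left, signal of 6 red-cell or co-varying genes (log axis, multiples of the array mean; values under 0.00001 are drawn there) in each of the 9 E16 arrays. Right, median position of each heterozygous array (0 is the wild-type and 1 the null level) for genes that fell in null ovaries, genes that rose and were or were not called at other stages, and rising genes apart from wild-type only. The red-cell genes of heterozygous array 3 are near the wild-type level, and the spread between the 3 heterozygous arrays is largest for the last set, from 0.47 to 1.16.

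To place the heterozygous ovaries on genes chosen without any E16 array, the 4 comparisons of Foxl2-null with control ovaries at E13, at P0 and in the Wnt4-null and Kit mutant backgrounds of P0 were averaged. In that average 140 genes (0.77%) were higher and 321 (1.77%) lower in null ovaries. At E16, the 140 genes had a median change of 0.40 between null and wild-type and 0.15 between heterozygous and wild-type, while the 321 genes had medians of -0.25 and 0.02. With median centring the heterozygous medians were 0.29 and 0.11, beside 0.10 for all genes. Of the 140 genes, 54 were higher in null than in wild-type ovaries at an unadjusted p under 0.05 (3.9% of all genes), 18 were higher and 4 lower in heterozygous than in wild-type (2.83% and 2.79% of all genes) and 30 were higher in null than in heterozygous ovaries (1.83% of all genes). Of the 321 genes, 87 were lower in null than in wild-type (3.43% of all genes), 17 were lower and 6 higher in heterozygous than in wild-type (2.79% and 2.83% of all genes) and 75 were lower in null than in heterozygous ovaries (1.81% of all genes).

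The controls of 3 of these 4 comparisons are labelled Foxl2+/-, so that this choice favours genes that differ between null and heterozygous ovaries; for E13 the methods of the study name wild-type littermates instead. With genes chosen at P0 alone, where the controls carry no such label, 59 genes were higher and 126 lower in null ovaries, and the heterozygous medians were 0.27 and -0.10 against null medians of 0.59 and -0.33. The heterozygous median of the falling genes was thus 29.5% of the null median with this choice, and that of the rising genes 46.1%, or 37.3% for the 140 genes. Of the 126 genes, 15 were lower in heterozygous than in wild-type ovaries at an unadjusted p under 0.05 (2.79% of all genes), and 0 were called.

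Averaged per array, the 140 higher genes were 0.19, 0.17 and 0.15 above the wild-type mean in heterozygous arrays, -0.05 to 0.05 in wild-type arrays and 0.41 to 0.72 in null arrays, so the heterozygous arrays lay between both groups and close together. The 321 lower genes averaged -0.03, -0.05 and 0.03 in heterozygous arrays, within the wild-type range of -0.07 to 0.10, and -0.45 to -0.42 in null arrays. For the 126 genes chosen at P0, the heterozygous arrays averaged -0.12, -0.29 and -0.16, below the wild-type range of -0.09 to 0.08. On 647 genes higher in testis than in ovary at E13, heterozygous arrays ranged from -0.02 to 0.08, and on 1887 genes that were higher in ovaries at P0 than at E13 from 0.01 to 0.08. Both ranges overlapped with those of the wild-type arrays. On the 954 genes higher in ovary than in testis at E13, heterozygous arrays averaged 0.0626, 0.141 and 0.107, above the wild-type range of -0.067 to 0.0598 in all 3 arrays, and null arrays ranged up to 0.114.

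**Figure D5:**
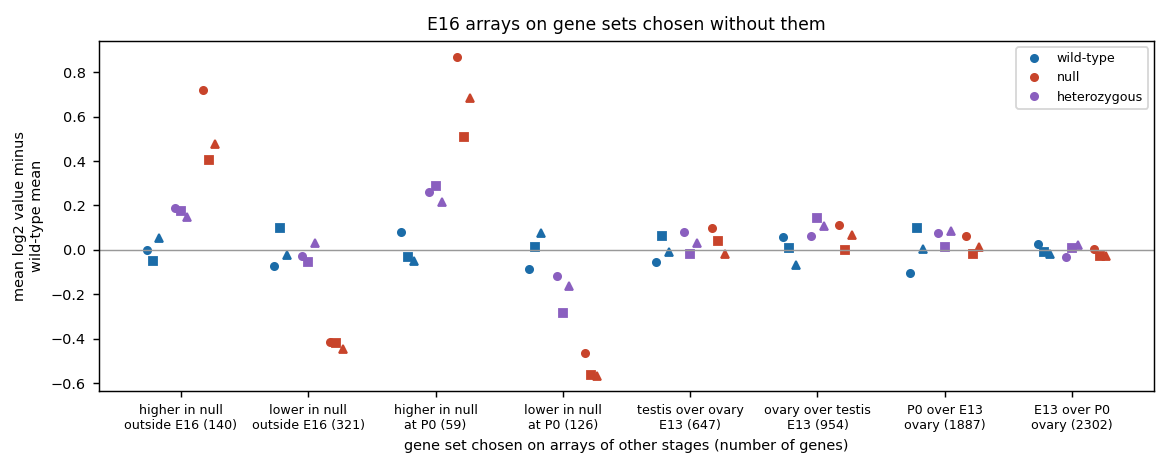
Mean log2 value of gene sets chosen on arrays of other stages (x axis, number of genes in brackets) in each of the 9 E16 arrays, minus the mean of the 3 wild-type arrays (y axis); colours are genotypes and symbols array numbers. Heterozygous arrays lie at 0.15 to 0.19 on the genes that are higher in null ovaries outside E16, between wild-type and null, and inside the wild-type range on those that are lower.

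Testis-determining genes did not pass the test in heterozygous ovaries. Of 20 Sertoli cell genes, 2 rose between null and wild-type (Inhbb and Dhh), 1 rose between null and heterozygous (Inhbb), and 0 were called between heterozygous and wild-type, with median changes of 0.36, -0.03 and 0.20 in this order. In the last comparison 1 gene was higher and 1 lower at an unadjusted p under 0.05 by limma. Dhh, a hedgehog ligand of Sertoli cells, measured 0.0741, 0.0709 and 0.0815 in wild-type, 0.107, 0.0980 and 0.107 in heterozygous and 0.651, 0.191 and 0.246 in null arrays, so that heterozygous arrays were above all wild-type arrays by a log2 of 0.42 ± 0.36 (adjusted p = 0.939). Its call between null and wild-type was lost without null array 1. The other probe set of Dhh changed by -0.03 from wild-type to heterozygous and by -0.14 from wild-type to null. The change from wild-type to heterozygous was 0.38 ± 0.36 for Sox9, 0.85 ± 0.49 for Dmrt1, 0.46 ± 0.38 for Fgf9 and 0.27 ± 0.27 for Nr5a1, and wild-type and heterozygous arrays overlapped in all 4. On other probe sets this change was 0.79 and -0.02 for Sox9, -0.04 for Fgf9 and -0.17 for Nr5a1. The summed signal of the 20 genes was 14.0 to 16.1 in wild-type, 15.9 to 17.2 in heterozygous and 11.9 to 17.4 in null arrays. The 24 probe sets that the study lists as testis determination markers had a median change of 0.00 in heterozygous and 0.12 in null ovaries, against -0.10 and -0.07 for all 45007 probe sets.

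Genes of the fetal ovary and its germ cells likewise had 0 calls between heterozygous and wild-type. Of 19 somatic genes of the fetal ovary, 1 rose between null and wild-type (Nr0b1, a call that 5 of the single arrays undid when left out), and the median change in heterozygous ovaries was -0.01. Rspo1, a secreted activator of Wnt signalling, measured 4.90, 6.03 and 4.86 in wild-type and 6.32, 6.89 and 7.26 in heterozygous arrays, a change of 0.38 ± 0.23 (adjusted p = 0.934) in arrays that did not overlap. Irx3 changed by 0.49 ± 0.43 and Gng13 by 0.16 ± 0.87 with overlapping arrays. The median change in heterozygous ovaries was 0.09 for 26 meiosis genes, 0.22 for 13 germ cell genes and 0.14 for 20 oocyte genes, and null ovaries stood at -0.07, 0.01 and -0.09. Wild-type arrays differed among themselves in these genes: Stra8, which starts meiosis, ranged from 0.115 to 3.19, and the oocyte transcription factor gene Figla from 0.450 to 1.99, so that the heterozygous ranges of 0.241 to 2 and 0.926 to 1.97 lay within them. Sycp3, of the synaptonemal complex, changed by -0.03 ± 0.39 and the oocyte gene Sohlh1 by 0.52 ± 0.48. Of the 100 probe sets of the fetal oocyte list of the study, 72 were higher in heterozygous than in wild-type ovaries, with a median of 0.07, where 37.4% of all probe sets and 45.8% of the 18184 genes were higher. In null ovaries 57 were higher than in wild-type, with a median of 0.03. The heterozygous median of 0.07 is smaller than the upward shift given by median centring, so its size depends on the scaling. Centring moves this list and all probe sets alike. The gap to the median of -0.10 of all probe sets is thus unchanged by it, and was not tested. With weak genes filtered out, the median heterozygous change of all genes was 0.04. The longer list of fetal ovarian soma, with 100 probe sets, had a median of 0.01 in both heterozygous and null ovaries.

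Extracellular matrix genes and proteases changed in both directions, on a list drawn up with earlier results of these data known. Of 20 measured genes, 3 rose (Adamts8, Fbln2 and Mmp23) and 6 fell (Thbs1, Thbs2, Adamts16, Fbn2, Ntn4 and Sdc4) between null and wild-type, and 7 of these were called the same way between null and heterozygous, the exceptions being Mmp23 and Thbs1. Among all genes, 0.484% rose and 0.28% fell between null and wild-type. The study had already placed all of these called genes among its top-ranking genes, from arrays of this series. Their number is thus no result about matrix genes as a group. The call of Fbln2 between null and heterozygous was lost without any heterozygous array and without null array 1 or 2. The median change of the 20 genes was -0.11 in heterozygous and -0.32 in null ovaries. Among 12 measured granulosa cell and estrogen genes, Kitl fell in null ovaries, and among 21 ligands and binding proteins of the TGF-beta superfamily Inhbb and Bmp5 rose. Amh, the hormone that removes the Müllerian duct, measured 0.707, 0.645 and 0.851 in wild-type and 0.632, 0.480 and 0.564 in heterozygous arrays, a change of -0.39 ± 0.19 (adjusted p = 0.887). In 9 measured steroidogenic genes, Akr1c14 fell between null and wild-type and between null and heterozygous. For 22 cell cycle genes the median was 0.20 in heterozygous and 0.25 in null ovaries, with a rise of Mcm7 in null ovaries, and for 16 glycolysis genes it was 0.06 and 0.28, with a rise of Hk2. The call of Mcm7 was lost without wild-type array 3 and null array 1 or 3, and that of Hk2 without any wild-type or null array or heterozygous array 3. Lists of Wnt targets, meiosis, germ cell, oocyte, endothelial, macrophage, stroma, adrenal cortex, mesonephric duct and ribosomal protein genes had 0 calls in the 3 comparisons by limma, and at most 2 members of any of them were higher or lower in heterozygous ovaries at an unadjusted p under 0.05. The summed signal of the 10 mesonephric duct genes, a tissue beside the gonad, was 7.29 to 9.60 in wild-type, 8.66 to 10.3 in heterozygous and 6.40 to 8.13 in null arrays, and that of 7 adrenal genes at most 1.22 in any of the 9 arrays. Immediate early genes (1 rise, Ier3) and striated muscle genes (1 rise, Tnnt1) had these calls between null and wild-type and 0 in the other 2 comparisons, and both calls were lost without any wild-type array and without null array 1 or 3, that of Tnnt1 also without any heterozygous array.

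A few genes stood outside the order of genotypes. Rab5b, a small GTPase of early endosomes, measured 1.31, 1.12 and 1.15 in wild-type, 0.726, 0.512 and 0.530 in heterozygous and 0.958, 0.995 and 0.707 in null arrays. It changed by -1.02 ± 0.19 from wild-type to heterozygous and just missed the threshold (adjusted p = 0.0522), and its other probe set changed by -0.12. Edaradd, Slc43a2 and Chchd10 were called between null and heterozygous but not between null and wild-type. These 3 calls were lost without heterozygous array 2 or 3 and without null array 1 or 2. Slc43a2, an amino acid transporter gene, measured 1.35, 1.56 and 2.05 in wild-type, 2.20, 2.55 and 2.25 in heterozygous and 0.701, 0.839 and 1.06 in null arrays, so the heterozygous arrays were above both homozygotes, and a second probe set changed by -0.82 between null and heterozygous. The weakest probe set, with a mean signal of 0.0227, changed by 0.08. Edaradd, an adaptor of a TNF-family receptor, measured 0.313, 0.439 and 0.294 in wild-type, 0.511, 0.441 and 0.801 in heterozygous and 0.131, 0.101 and 0.0717 in null arrays.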

How the data were processed

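Members and gene lists were chosen with earlier results of these data known. The labels name MELT extraction of RNA, which was amplified in a single round (Pico Ovation, FL-Ovation biotin label). The authors deposited linear intensities for 45071 probe sets, which they summarised by the plier method and scaled to a common mean (GCOS 1.3 is named in the submitters' processing notes); the genome build is not given in the sources used here. Control probe sets (64) were left out, 34927 had 1 gene symbol, updated through the RefSeq table for 34723, and of several probe sets of a gene the one of highest mean signal was taken. Array medians were 0.244 to 0.292 of the mean, and replicate correlations 0.968 to 0.978; the number of arrays limits the precision.

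Group means of all 15 groups (43 arrays) were fitted in limma 3.58.1 under R 4.3.3 (log2 of the intensity plus 1% of the mean; lmFit, trended eBayes, residual degrees of freedom 28, two-sided, Benjamini-Hochberg over 18184 genes), which was also tested on simulated data. The study used another program, not available here. Mice are the replicates. Named genes were Foxl2, up to 12 largest rises and falls with separate arrays and a signal above 0.256 per comparison (8 for those with heterozygous ovaries, filled to 4 by unadjusted p), up to 3 members of each list, and a short fixed list; the text gives a subset, chosen after the values were seen, with Cbr3, Chchd10, Fbn2, Hba-a1, Jakmip1, L3mbtl3, Sdc4, Shtn1 and Smad3 outside the rule. Array numbers of the 9 arrays were checked for pairing: residuals of same-numbered arrays correlated at -0.177 to 0.196. This gave no sign of pairing but cannot exclude shared litters, and the arrays were fitted as unpaired. Alternatives were pseudocounts of 0.1% and 5%, 2 other normalizations, a filter, only the 9 arrays, no trend, another probe set, a replicate block and leaving out each array.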

Additional observations from a re-analysis of the deposited data

How the results depend on the processing

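Called genes were 139 between null and wild-type, 1 between heterozygous and wild-type, 32 between null and heterozygous and 0 against the midpoint. With only the 9 arrays of E16 they were 264, 2, 95 and 8, and the genes apart from null only, both and wild-type only were 125, 66 and 73 in place of 78, 23 and 37. Without a trend 0 and 19 genes were called in the comparisons with heterozygous ovaries, and 15 and 22 were apart from both and from wild-type only. Heterozygous calls were 2 with quantile normalization or a filter on low values, and 2 genes left the midpoint with a pseudocount of 5%. With the replicate block 3 genes were called between heterozygous and wild-type, and no other count moved by more than 1.5 times, although the calls of Cbr3, Hk2 and Tnnt1 between null and wild-type were lost. With the erythroid covariate, chosen after seeing the data, 26 and 0 genes were called against wild-type, the classes held 16, 10 and 0, the position of rising genes was 0.299, and the erythroid medians were 0.0071 (heterozygous) and -0.0265 (null), as the covariate's construction entails. The medians of the genes higher in null ovaries at other stages, 0.148 (heterozygous) and 0.396 (null), were 0.286 and 0.525 with median centring and 0.273 and 0.592 with P0 alone. Those of the lower genes, 0.0235 and -0.252, were 0.113 (heterozygous) with centring, -0.0965 and -0.327 with P0 alone, and -0.182 (null, filter) and -0.316 (null, probe set of highest variance). The change of Slc43a2 between null and heterozygous was -1.44, and 0.0848 on the probe set of highest variance. Beyond these constructions the cause was not tested.

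Leaving out each array gave 62 to 145, 0 to 12, 12 to 33 and 0 to 1 calls in the 4 comparisons, positions of 0.174 to 0.275 for falling and 0.396 to 0.545 for rising genes, and 38 to 95, 5 to 30 and 9 to 44 genes in the 3 classes. The heterozygous and null medians were 0.0898 to 0.177 and 0.336 to 0.524 for the higher genes, -0.0121 to 0.0598 and -0.299 to -0.209 for the lower genes, and 0.531 to 2.1 and 1.09 to 2.44 for erythroid genes. Of 4128 recomputed values of named genes, 3679 kept their direction and side of the threshold or moved by less than 1 SE, and 299 calls were lost. With 3 arrays a genotype, differences within the intervals given were not detectable.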
